A study of Mus musculus with 24 samples.

Results

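The HOX cluster genes were the 39 rows of the normalised count table, of 27179 rows in all, whose gene symbol is Hox followed by the cluster letter a, b, c or d and a paralog number. The clusters held 11, 10, 9 and 9 members, in the order a to d, and non-coding rows such as Hoxa11os were not members. In the GRCm38 annotation (GENCODE vM21) the members of Hoxa span chr6:52155590-52260880, those of Hoxb chr11:96194316-96368256, those of Hoxc chr15:102921103-103036852 and those of Hoxd chr2:74668310-74765142. HOX genes encode homeodomain transcription factors that give cells their position along the body axis of the embryo. A paralog number names the same place in each cluster: low numbers lie at one end and are used from the hindbrain and neck downwards, and high numbers lie at the other end and are used in the lower trunk, the hind limb and the urogenital tract. Adult fat tissue keeps HOX patterns that differ between depots, and in mice Hoxa9, Hoxa10, Hoxa11 and Hoxa13 pattern the oviduct, uterus, cervix and vagina from one end of the female tract to the other.

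The libraries were bulk RNA sequencing of PDGFRb+ cells, a mesenchymal population that includes fat cell precursors, sorted from white adipose tissue of C57BL/6 mice. The gonadal depot gave M_FIP and M_APC from males and F_FIP and F_APC from females. The inguinal depot, which is subcutaneous, gave M_DPP4_pos and M_DPP4_neg from males and F_DPP4_pos and F_DPP4_neg from females, with DPP4_pos and DPP4_neg naming cells with and without the surface peptidase DPP4. Each of the 8 groups had 3 libraries, the gates that separated FIP from APC and the age of the mice are not stated in the labels or the submitters' notes, and the labels do not say whether libraries came from separate animals, so that p-values speak only of the variation among libraries, whether biological or technical. Recovered reads per library ranged from 9152470 to 18221692.

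The summed level of 7 mesenchymal markers was high in every library, at 217861 to 231156 normalised counts in M_FIP, the lowest group, and 610707 to 642256 in M_DPP4_neg, the highest. Dpp4 had 14883 to 16085 normalised counts in M_DPP4_pos and 235 to 258 in M_DPP4_neg, and 17356 to 20848 in F_DPP4_pos and 1150.2 to 4213 in F_DPP4_neg, where it was lower but uneven between libraries. Other cell types were not evenly spread. The 7 epithelial markers (keratin and cell junction genes such as Krt8, Cldn4 and Epcam) summed to 7609 to 18198 in the 3 F_DPP4_neg libraries, against 314 to 567 in F_DPP4_pos, 51.5 to 188 in F_APC and at most 49.4 in any library of the other 5 groups. Each value of F_DPP4_neg below comes from those libraries, and the part of epithelial RNA in the results was not tested. In bulk samples, fewer cells of a type and less RNA per cell cannot be told apart.

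Of the 39 members, 31 had at least 10 normalised counts in at least 3 libraries and were tested, namely all 11 of Hoxa, 7 of 10 in Hoxb, 7 of 9 in Hoxc and 6 of 9 in Hoxd. A normalised count is the number of reads divided by the size factor of the library. The 8 members below that minimum were Hoxb1, Hoxb9, Hoxb13, Hoxc12, Hoxc13, Hoxd1, Hoxd12 and Hoxd13. Hoxb13 and Hoxc12 had no read in any of the 24 libraries, Hoxd12 had 1 read in all, Hoxb1 had 2, Hoxc13 and Hoxd1 had 3 each, and Hoxd13 had 9, of which 6 were in F_FIP. Hoxb9 was detected in 23 libraries with 113 reads, and its group means ran from 3.201 to 7.98. Few or no reads thus fell on the ends of the clusters: the paralog 1 genes Hoxb1 and Hoxd1 and the paralog 12 genes, together with 3 of the 4 paralog 13 genes. At the other extreme, 13 members reached 10 normalised counts in all 24 libraries: Hoxa3, Hoxa5, Hoxa7, Hoxb2, Hoxb3, Hoxb4, Hoxb6, Hoxc4, Hoxc5, Hoxc6, Hoxc8, Hoxc9 and Hoxd8. In the annotation 16 members share exon bases with another gene, and since the strand setting of the counting is not given in the sources used here, reads of such pairs cannot be told apart with certainty.

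**Figure D1:**
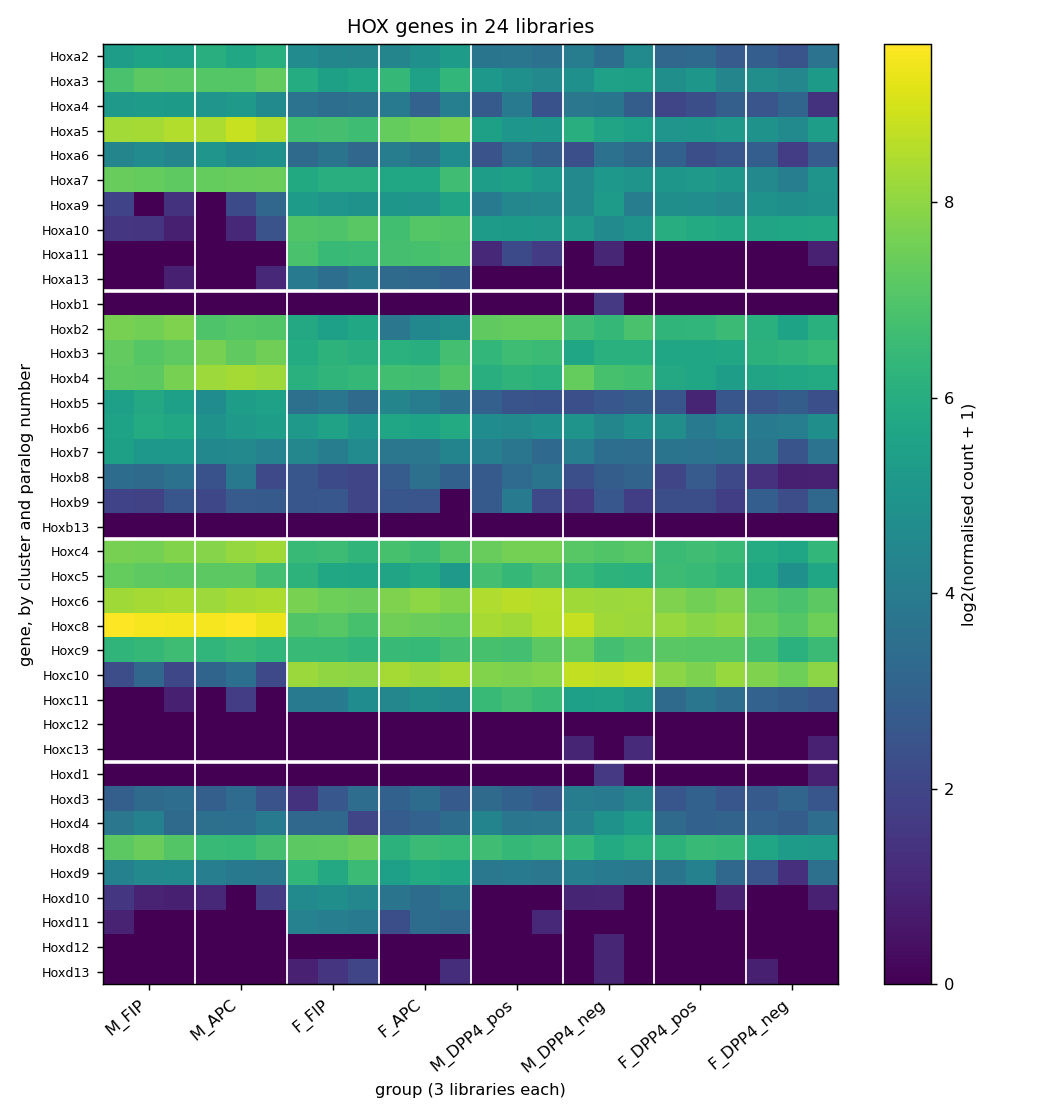
Expression of HOX genes (rows, by cluster and paralog number) in 24 libraries (columns, 3 a group), as log2 of the normalised count plus 1. Hoxa11, Hoxa13 and Hoxc11 were at or near 0 and Hoxa9, Hoxa10 and Hoxc10 low in the 6 male gonadal libraries, and Hoxa11, Hoxa13, Hoxd10 and Hoxd11 stood out in the 6 female gonadal libraries.

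Summed per kilobase of exon, the 39 members came to 1188 ± 24.04 normalised counts per kb in M_FIP and 1244 ± 62.3 in M_APC, and to 779.6 ± 25.7 in F_FIP and 885 ± 62.5 in F_APC (mean ± SD, n = 3 each, as for all values given this way). In the inguinal depot the sums were 835 ± 20.6 in M_DPP4_pos, 866 ± 63.5 in M_DPP4_neg, 622 ± 24.5 in F_DPP4_pos and 464 ± 71.2 in F_DPP4_neg. Male cells had the larger sum in all 4 subpopulations.

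The make-up of these sums differed between the male and female groups of the gonadal depot. Gonadal fat lies beside different organs in males and females, so sex and site in the body cannot be told apart there. Paralogs 9 to 13 made up 4.297% ± 0.406 of the summed level per kb in M_FIP and 3.96% ± 0.138 in M_APC, against 42.4% ± 1.57 in F_FIP and 38.6% ± 1.22 in F_APC. Inguinal cells of both sexes were on the female gonadal side of that gap, with 28.6% ± 0.349 in M_DPP4_pos, 36.6% ± 0.896 in M_DPP4_neg, 35.3% ± 1.39 in F_DPP4_pos and 37.98% ± 0.529 in F_DPP4_neg. Hoxc9 to Hoxc13 were the largest part of the class in all 8 groups, with 181 ± 9.19 per kb in F_FIP, 211 ± 9.97 in F_APC and means of 150.5 to 294 in the inguinal groups. Hoxa9 to Hoxa13 summed to 94.3 ± 7.601 per kb in F_FIP and 97.3 ± 7.15 in F_APC, but to between 13.6 and 22.1 in the 4 inguinal groups.

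**Figure D2:**
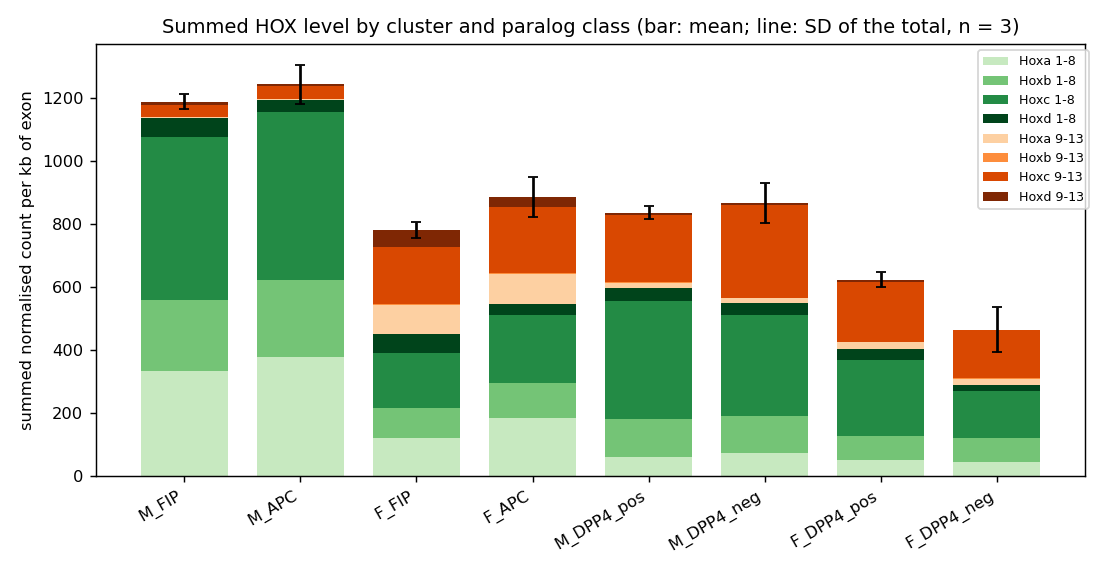
Summed normalised count per kb of exon for the 39 members in each group, split by cluster and by paralogs 1 to 8 (green) and 9 to 13 (orange), as means with the SD of the total (n = 3). The orange part is 3.96% to 4.30% of the bar in the male gonadal groups and 28.6% to 42.4% in the other 6.

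The leading gene changed with the group as well. Hoxc8 was the highest member per kb in male gonadal cells (257 ± 15.7 normalised counts per kb in M_FIP and 252 ± 24.9 in M_APC), followed by Hoxa5 (176 ± 16.7 in M_FIP and 205 ± 29.9 in M_APC). Hoxc10 led in female gonadal cells (137 ± 9.89 in F_FIP and 161 ± 8.003 in F_APC), and in 3 of the 4 inguinal groups, with 221 ± 7.24 in M_DPP4_neg as its highest level. In M_DPP4_pos, Hoxc6 (155 ± 6.86) stood above Hoxc8 (117 ± 10.2) and Hoxc10 (116 ± 4.45), and the last 2 of these did not differ beyond their spread. The Hoxc cluster as a whole made up a mean of 45.5% to 48.3% of the sum in the gonadal groups and of 64.6% to 70.9% in the inguinal groups, while Hoxa made up 27.2% to 31.5% in the gonadal groups and 8.93% to 13.97% in the inguinal groups. Levels of Hoxc5 and Hoxc10, which share 166 bases of exon on the same strand, carry that uncertainty.

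Within a cluster the members differed widely per kb. In Hoxa, Hoxa5 was the highest in the gonadal and the male inguinal groups, and did not differ from Hoxa10 beyond their spread in F_DPP4_pos (17.6 ± 0.987 and 17.7 ± 1.55) or F_DPP4_neg (16.2 ± 4.61 and 15.3 ± 0.670), while Hoxa13 stayed low, at 0 to 5.16 per kb over the 8 group means. In Hoxb, the group means ran over 5.79 to 57.4 per kb for Hoxb2, 12.05 to 42.03 for Hoxb3, 18.7 to 117 for Hoxb4, 1.31 to 16.6 for Hoxb5, 9.67 to 27.1 for Hoxb6, 6.24 to 24.1 for Hoxb7 and 0.403 to 3.76 for Hoxb8. Hoxb8 stood under Hoxb2 and Hoxb4 in each of the 8 groups. In Hoxc, where 7 neighbouring genes from Hoxc4 to Hoxc11 were tested, group means ran over 24.8 to 105 for Hoxc4, 13.6 to 49.1 for Hoxc5, 54.9 to 155 for Hoxc6 and 34.5 to 56.9 for Hoxc9. The highest group mean of Hoxc9 was less than double its lowest, the narrowest span of these 4. In Hoxd the highest member was Hoxd8 (15.1 to 56.7), with Hoxd3 at 1.33 to 3.92 and Hoxd4 at 2.24 to 9.76.

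Male and female gonadal cells were compared first, because the high paralogs split there. Calls rest on limma, fitted to all 14387 genes tested, with Benjamini-Hochberg adjusted p under 0.05 as the threshold, and differences are on the scale of log2 of the normalised count plus 1, which understates the change of low genes. In APC, 13 members were higher and 9 lower in males (background over all genes 22.4% higher and 22.2% lower), and in FIP 17 were higher and 9 lower (background 18.3% and 19.1%). All 13 and all 17 higher members were paralogs 2 to 8, and the 9 lower members were the same in both subpopulations: Hoxa9, Hoxa10, Hoxa11, Hoxa13, Hoxc10, Hoxc11, Hoxd9, Hoxd10 and Hoxd11. Hoxc9 was the 1 tested paralog 9 to 13 gene that was not called. Of the 9, Hoxa11, Hoxa13, Hoxd10 and Hoxd11 reached the minimum for testing only through female gonadal libraries, so that their direction was tied to that filter. For Hoxa13 and Hoxd11 these were libraries of F_FIP alone and none of F_APC. This leaves 5 called members that had also passed elsewhere. The median difference of the 31 members, males minus females, was 0.44 in APC and 0.87 in FIP, against 0.00 and -0.02 over all genes.

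Hoxa11, which in mice is needed for uterine development and acts with Hoxd11 in the kidney and forearm, was the clearest case. No read fell on it in any of the 6 male gonadal libraries, while it had 114, 88.7 and 93.5 normalised counts in F_FIP and 109.9, 113 and 120.3 in F_APC. Males were at least 113-fold lower in FIP and at least 102-fold lower in APC, with a floor of 3 reads over the group at 0. In the inguinal depot it was at or near 0 in both sexes, with 1.13, 3.46 and 2.203 in M_DPP4_pos, 1 read in all of M_DPP4_neg, none in F_DPP4_pos and 1 in F_DPP4_neg. The gene was thus abundant in 2 of the 8 groups, whose libraries did not overlap with any other. Hoxa11 shares 35.0% of its exon length with the opposite-strand gene Hoxa11os. Hoxa11os itself had 0 to 0.892 in M_FIP and 0 to 0 in M_APC, against 116, 119 and 138 in F_FIP and 122, 155 and 158 in F_APC.

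Hoxa13, Hoxd10 and Hoxd11 had the same on or off pattern at lower levels. Hoxa13, which acts in the limb ends and the terminal gut and genital tract, had 1 read in each of M_FIP and M_APC, against 14.1, 10.2 and 13.9 in F_FIP and 8.91, 8.32 and 6.91 in F_APC, and no read in any inguinal library. Hoxd11, a partner of Hoxa11 in the limb and kidney of mice, had 1 read in M_FIP and none in M_APC, against 18.3, 16.2 and 14.9 in F_FIP and 3.96, 9.51 and 8.296 in F_APC. Hoxd10 had 1.89, 0.892 and 0.813 in M_FIP and 1.07, 0 and 2.26 in M_APC, against 22.4, 26.4 and 20.9 in F_FIP and 11.9, 9.51 and 12.4 in F_APC. For each of these genes every female gonadal library lay above every male one, and the inguinal groups had at most 2 reads each. The female to male ratio of Hoxa13 was 43.4 (exact binomial 95% interval 7.38 to 1753) in FIP, an interval that covers counting error only.

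Promoter windows of 300 bases (250 before and 50 after the RefSeq start, GRCm38.p6) are printed for 3 of the genes read almost only in female gonadal cells, Hoxa11, Hoxa13 and Hoxd11, and for Hoxa5, which differed most between depots among the members called the same way in both sexes. They lie at chr6:52245761-52246060 (minus strand), chr6:52260831-52261130 (minus strand), chr2:74679308-74679607 (plus strand) and chr6:52204538-52204837 (minus strand), and each is written 5′ to 3′ on its own strand. Capitals mark 4 motifs searched on both strands, with the reverse complement in capitals where a match is on the other strand. They were the TATA box TATAAA, the box CCAAT bound by the factor NF-Y, the homeodomain core TAATTA, and AGGTCA, the single site of nuclear receptors.
Hoxa11: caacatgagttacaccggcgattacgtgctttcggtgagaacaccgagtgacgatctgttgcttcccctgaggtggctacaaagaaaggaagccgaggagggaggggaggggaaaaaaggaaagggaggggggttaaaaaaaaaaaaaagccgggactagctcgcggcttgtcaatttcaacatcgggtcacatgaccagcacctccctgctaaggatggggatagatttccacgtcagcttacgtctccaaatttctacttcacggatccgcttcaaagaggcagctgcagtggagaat
Hoxa13: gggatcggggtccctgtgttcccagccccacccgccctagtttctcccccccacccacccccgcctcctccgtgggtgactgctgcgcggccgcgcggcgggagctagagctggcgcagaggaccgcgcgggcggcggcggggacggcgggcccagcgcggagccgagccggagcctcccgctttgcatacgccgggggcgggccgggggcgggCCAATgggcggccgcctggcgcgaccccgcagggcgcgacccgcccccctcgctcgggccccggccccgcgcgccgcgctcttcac
Hoxd11: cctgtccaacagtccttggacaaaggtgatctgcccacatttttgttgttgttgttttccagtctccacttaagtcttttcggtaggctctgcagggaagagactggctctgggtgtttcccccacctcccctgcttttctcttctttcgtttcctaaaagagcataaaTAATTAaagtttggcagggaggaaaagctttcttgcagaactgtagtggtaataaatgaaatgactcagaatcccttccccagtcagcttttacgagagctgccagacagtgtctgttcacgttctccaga
Hoxa5: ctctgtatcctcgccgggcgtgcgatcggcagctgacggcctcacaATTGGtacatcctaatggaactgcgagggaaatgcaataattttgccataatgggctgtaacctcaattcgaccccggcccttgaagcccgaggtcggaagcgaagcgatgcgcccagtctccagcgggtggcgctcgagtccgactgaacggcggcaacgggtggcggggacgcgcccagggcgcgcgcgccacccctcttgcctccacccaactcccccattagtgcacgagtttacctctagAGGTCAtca
Hoxa11 held none of the 4 motifs, Hoxa13 held 1 CCAAT, the printed window of Hoxd11 held 1 TAATTA, and Hoxa5 held 1 CCAAT and 1 AGGTCA. No marked motif overlaps another in these windows. The windows also differed in CpG number, with 15 in Hoxa11, 45 in Hoxa13, 4 in the printed window of Hoxd11, 25 in its other window and 29 in Hoxa5, against a median of 14.5 over the 24 windows of the 22 members that matched and of 7 over all 32851 windows. TAATTA occurred in 5.29% of all windows and in both windows of Hoxd11 but in no other member window, CCAAT in 37.4% of all windows and in 15 of the 24, AGGTCA in 16.3% and in 7, and TATAAA in 13.6% and in 4. A match is a description of these letters and not a bound site.

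The paralog 9 and 10 genes Hoxa9, Hoxa10 and Hoxc10 were also low in male gonadal cells, but were expressed in all other groups. With few reads in those cells, the fitted differences of Hoxa9 and Hoxa10 depend on the added 1. Hoxa10, which in mice is needed for the uterus and for descent of the testis, had 1.89, 1.78 and 0.813 in M_FIP, against 129, 124 and 140.3 in F_FIP. In APC it had 0, 1.16 and 4.53 in males, against 104, 136 and 127 in females. The difference, males minus females, was -5.75 ± 0.35 (SE), adjusted p = 2.07e-12, in FIP and -5.74 ± 0.35 (SE), adjusted p = 1.45e-12, in APC. Inguinal cells were in between at group means of 29.2 to 57.8. Hoxa9, another abdominal identity gene, had 2.83, 0 and 1.63 in M_FIP, against 37.4, 31.6 and 29.9 in F_FIP, and 0, 3.48 and 7.92 in M_APC, against 32.7, 30.9 and 48.4 in F_APC. Its differences were -3.97 ± 0.52 (SE), adjusted p = 1.04e-06, in FIP and -3.46 ± 0.52 (SE), adjusted p = 5.25e-06, in APC, and the 3 M_APC libraries were spread widely around their few reads.

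Hoxc10, a lumbar and hind limb gene known as a marker of subcutaneous fat, had 3.78, 8.03 and 3.25 in M_FIP, against 283, 257 and 247 in F_FIP. It had 7.51, 10.4 and 3.39 in M_APC, against 318, 290.2 and 315 in F_APC. The differences were -5.53 ± 0.25 (SE), adjusted p = 4.05e-15, in FIP and -5.36 ± 0.25 (SE), adjusted p = 6.04e-15, in APC. Both female gonadal means lay within the range of the 4 inguinal means, 212 to 421. Hoxc11, its neighbour, had 1 read in M_FIP and 2 in M_APC, against 14.96, 14.5 and 24.9 in F_FIP and 20.8, 26.2 and 22.1 in F_APC. The female to male ratio was 60.5 (exact binomial 95% interval 10.5 to 2429.9) in FIP and 30.7 (exact binomial 95% interval 8.13 to 259) in APC. Hoxd9 was lower in males by a smaller margin, at 21.3 ± 2.94 in M_FIP and 77.1 ± 19.6 in F_FIP (-1.79 ± 0.36 (SE), adjusted p = 0.000284), and at 14.5 ± 1.37 in M_APC and 49.9 ± 8.34 in F_APC (-1.703 ± 0.36 (SE), adjusted p = 0.000354). Hoxc9 formed the border of the pattern: it had 86.2 ± 11.1 in M_FIP and 84.9 ± 4.59 in F_FIP, and 83.8 ± 6.77 in M_APC and 93.1 ± 11.6 in F_APC, with adjusted p = 0.953 and 0.486 (limma).

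**Figure D3:**
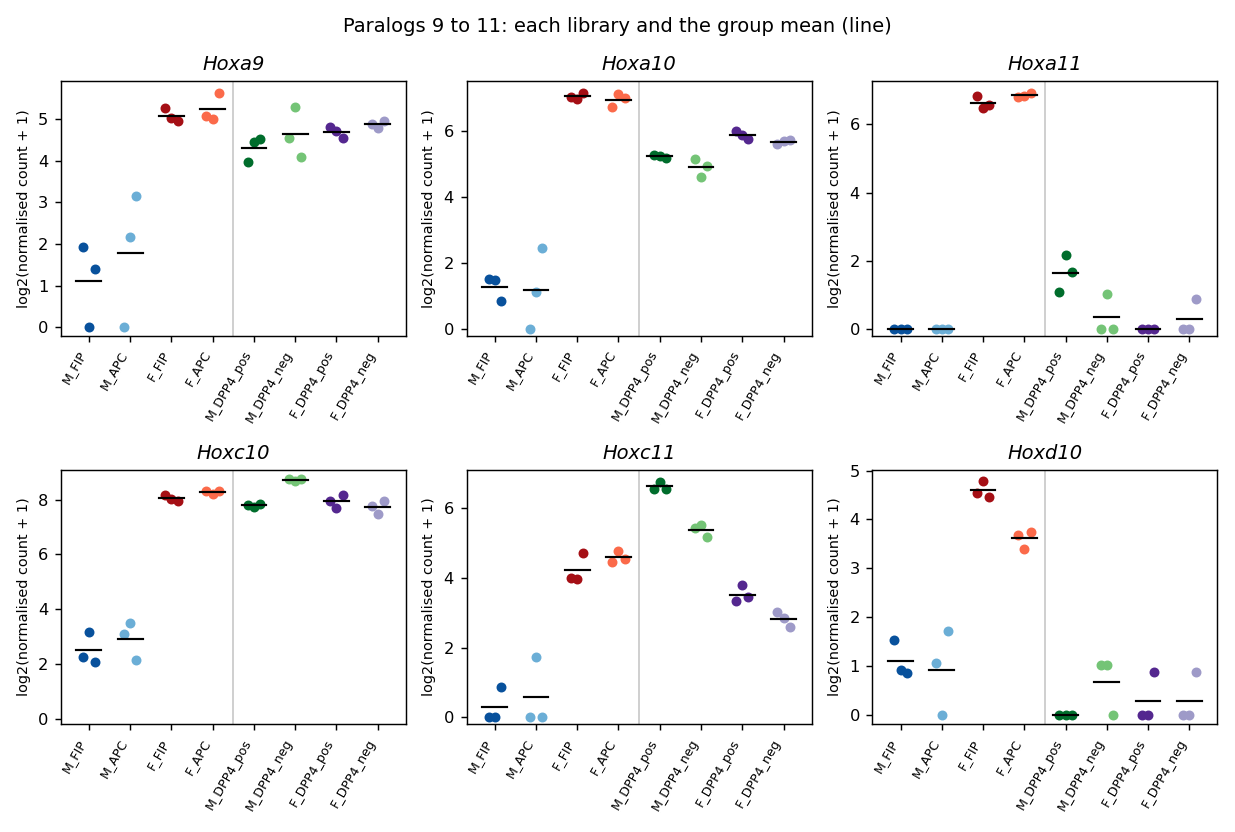
Paralogs 9 to 11 in each of 24 libraries (points) with the mean of the log2 values (lines), as log2 of the normalised count plus 1. Hoxa11 and Hoxd10 are high only in F_FIP and F_APC, Hoxa9, Hoxa10 and Hoxc10 are low only in M_FIP and M_APC, and Hoxc11 is highest in M_DPP4_pos.

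The lower paralogs went the other way. Hoxc8, a thoracic identity gene, had 778, 716 and 692 in M_FIP, against 127, 137 and 110.5 in F_FIP. It had 712, 784 and 643 in M_APC, against 186, 171 and 162 in F_APC. Differences were 2.54 ± 0.13 (SE), adjusted p = 6.23e-14, in FIP and 2.03 ± 0.13 (SE), adjusted p = 3.11e-12, in APC, with no overlap between the sexes. Hoxb2, a hindbrain patterning gene, had 200.2 ± 13.3 in M_FIP and 50.1 ± 7.24 in F_FIP (1.98 ± 0.19 (SE), adjusted p = 6.95e-09), and 129 ± 3.88 in M_APC and 20.2 ± 6.78 in F_APC (2.68 ± 0.19 (SE), adjusted p = 2.45e-11). The other called members of paralogs 2 to 8 differed by 0.50 (Hoxc6 in APC) to 1.9996 (Hoxb5 in FIP) on the log2 scale. Hoxc8 and Hoxb2 are named here after their values were seen. Members called in both subpopulations were Hoxa2 to Hoxa5, Hoxa7, Hoxb2 to Hoxb5, Hoxc4 to Hoxc6 and Hoxc8, and those called in FIP alone were Hoxa6, Hoxb7, Hoxb8 and Hoxd4. Hoxd4 reached the minimum for testing in male libraries only, so that its direction here was tied to that filter. Hoxd8, the highest member of its cluster per kb in each group, did not follow its neighbours: it had 149.5 ± 21.2 in M_FIP and 156 ± 13.7 in F_FIP, and 94.9 ± 11.9 in M_APC and 83.3 ± 10.9 in F_APC, with adjusted p = 0.797 and 0.364 (limma).

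Markers of other cells also moved between the sexes in gonadal tissue. The 6 mesothelial markers summed to 302 to 436 in M_FIP and 244 to 288 in F_FIP, but to 264 to 382 in M_APC and 834 to 1044 in F_APC. The 7 epithelial markers summed to 34.1 to 44.6 in M_FIP and 18.8 to 22.4 in F_FIP, and to 32.8 to 49.4 in M_APC and 51.5 to 188 in F_APC. Both sums were thus lower in F_FIP than in M_FIP and higher in F_APC than in M_APC. The 5 endothelial markers summed to 1929.8 to 2654 in M_FIP and 800.0 to 942 in F_FIP, and the 4 adipocyte markers to 202 to 245 in M_FIP and 70.7 to 89.7 in F_FIP. In M_FIP 4 of 5 endothelial, all 4 adipocyte, 4 of 5 mural and 4 of 6 tested leukocyte markers were called higher than in F_FIP. The part of these cells in the results was not tested.

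**Figure D4:**
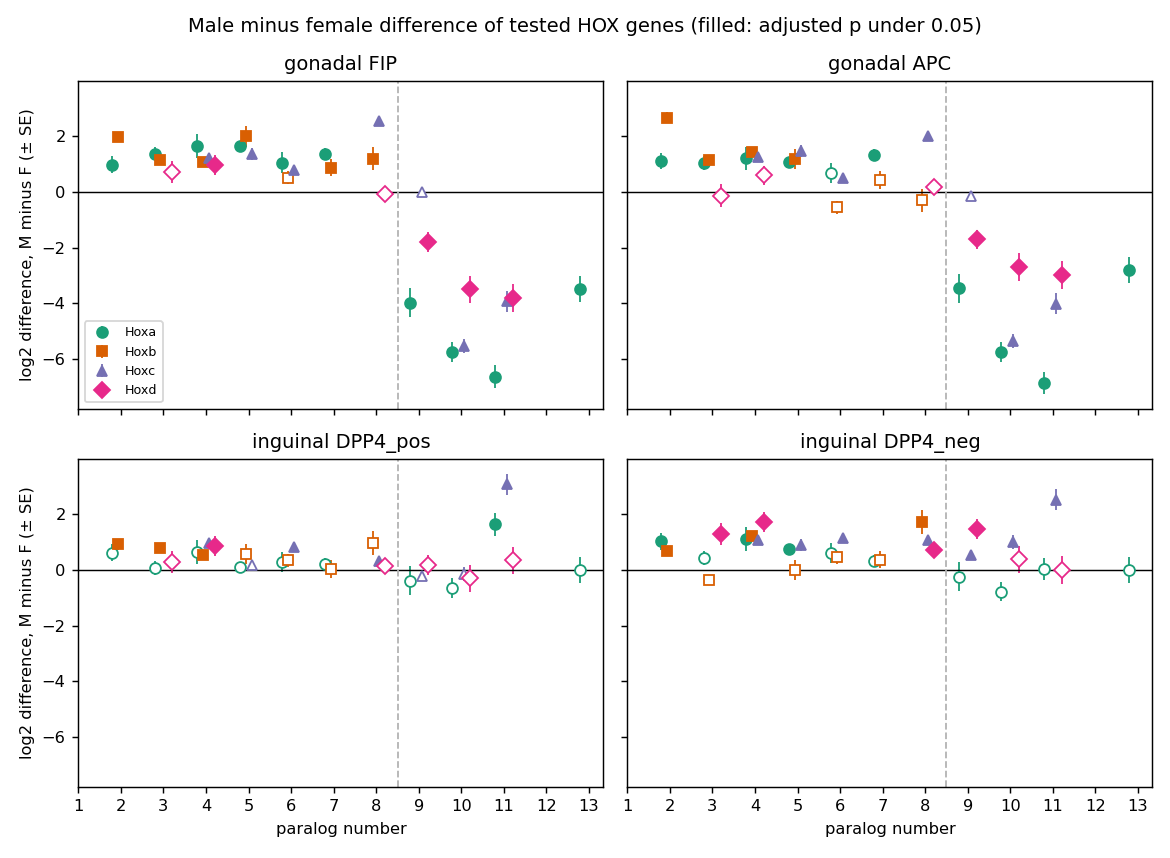
Log2 difference, males minus females, of tested HOX genes against paralog number in 4 subpopulations, with bars for 1 SE, 1 symbol a cluster and filled symbols for adjusted p under 0.05. In FIP and APC the called genes are above 0 up to paralog 8 and below 0 from paralog 9. In the inguinal cells the genes called by limma are above 0 (edgeR and DESeq2 each called 1 lower). Hoxa9, Hoxa10, Hoxa11, Hoxa13, Hoxb8, Hoxc11, Hoxd10 and Hoxd11 have fitted values here that depend on the added 1 where a group has few reads.

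In the inguinal depot the members called by limma were higher in males. In DPP4_neg cells 17 members were higher and 0 lower in males (background 27.1% and 30.5%), and in DPP4_pos cells 9 were higher and 0 lower (background 27.1% and 25.7%). The count of 9 is close to the background share of higher genes, while that of lower members is under it in both. Both counts of higher members include Hoxd4, which reached the minimum for testing in male libraries only. With edgeR the split was 17 higher and 1 lower in DPP4_neg and 9 higher and 1 lower in DPP4_pos, and with DESeq2 it was 17 higher and 1 lower in DPP4_neg and 8 higher and 1 lower in DPP4_pos, the lower one being Hoxa10 in each. The median difference of the members was 0.69 in DPP4_neg and 0.30 in DPP4_pos, against -0.03 and -0.000260 over all genes.

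Hoxc11, a lumbosacral and hind limb gene, had the largest difference of the tested members in both subpopulations. It had 91.6, 106 and 91.4 in M_DPP4_pos, against 9.003, 12.7 and 9.91 in F_DPP4_pos (3.09 ± 0.37 (SE), adjusted p = 1.47e-07). In DPP4_neg cells it had 41.6, 43.9 and 34.5 in males, against 7.15, 6.19 and 4.95 in females (2.54 ± 0.37 (SE), adjusted p = 2.35e-06). Inguinal males were thus the highest of the 8 groups for Hoxc11 and gonadal males the lowest. Hoxa11 was called in DPP4_pos on 6 reads in M_DPP4_pos and none in F_DPP4_pos, at least 2.43-fold higher in males, and that call was lost with a pseudocount of 10 (limma, adjusted p = 0.0652, and 3.52e-05 to 0.0652 over all 16 alternatives).

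Low members of Hoxb and Hoxd followed in DPP4_neg cells. Hoxb8 had 4.06, 6.13 and 7.398 in M_DPP4_neg, against 1.59, 0.774 and 0.826 in F_DPP4_neg (1.72 ± 0.42 (SE), adjusted p = 0.00117), from 16 and 4 reads. Hoxd4, which patterns the hindbrain and neck, had 18.3, 28.6 and 39.5 in M_DPP4_neg, against 7.15, 6.19 and 9.91 in F_DPP4_neg (1.72 ± 0.35 (SE), adjusted p = 0.000188). Hoxd3, with 15.2, 14.3 and 19.7 in M_DPP4_neg and 5.56, 7.74 and 4.95 in F_DPP4_neg, differed by 1.304 ± 0.40 (SE), adjusted p = 0.00687. Hoxd3 and Hoxd4 share 62.8% and 52.3% of their exon length with other genes, partly with each other, so the pair is uncertain as separate genes. Hoxd3 reached the minimum for testing only in the 3 libraries of M_DPP4_neg, so that its direction was fixed by that filter. This leaves 16 called members that had also passed elsewhere. Of these, Hoxd4 had passed in male libraries only, so that its direction as higher in males was tied to the filter too. The limit of Hoxd3 holds as well for the calls of Hoxd3 as lower in M_APC and in M_DPP4_pos than in M_DPP4_neg. Those calls are in the counts of those comparisons below. Hoxd9 had 16.2, 14.3 and 13.6 in M_DPP4_neg, against 4.77, 1.55 and 10.7 in F_DPP4_neg (1.49 ± 0.36 (SE), adjusted p = 0.000938), the opposite direction to its gonadal difference. The Hoxc genes from Hoxc4 to Hoxc11 were all called higher in M_DPP4_neg, by 0.55 (Hoxc9) to 2.54 (Hoxc11). The epithelial markers, 8.63 to 21.4 in M_DPP4_neg and 7609 to 18198 in F_DPP4_neg, moved with these differences, and their part in them was not tested.

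Gonadal cells were next set against inguinal cells of the same sex, APC against DPP4_neg and FIP against DPP4_pos. In females 21 members were higher and 1 lower in APC (background 27% and 32.4%), and 15 higher and 4 lower in FIP (background 22.2% and 22.7%). In males 15 were higher and 7 lower in APC (background 33.3% and 33.1%), and 15 higher and 7 lower in FIP (background 32.8% and 32.4%). Median differences of the members were 1.26 and 0.70 in female APC and FIP and 0.42 and 0.62 in male APC and FIP (0.57 in the last with genes at 0 reads set to their bound), while medians over all genes lay between -0.02 and 0.02. In males every higher member was a paralog 1 to 8 gene, and 5 of the 7 lower ones in APC and 6 of the 7 in FIP were paralogs 9 to 13. In females 7 of the 21 higher members in APC and 6 of the 15 in FIP were paralogs 9 to 13. These counts hold the 4 genes that passed the minimum only in female gonadal libraries, of which Hoxa13 and Hoxd11 passed it in F_FIP alone. The higher members of each comparison also include Hoxb5, which passed it only in gonadal libraries. Quantile normalisation moved the median of all genes by 0.13 in APC minus DPP4_neg of females, where 23 members were then higher and 1 lower.

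The members higher in gonadal cells of both sexes were mainly the low paralogs of Hoxa. Between APC and DPP4_neg they included Hoxa2 to Hoxa7, Hoxb4, Hoxb5, Hoxc4 and Hoxd8, and between FIP and DPP4_pos they were Hoxa2 to Hoxa5, Hoxa7, Hoxb4, Hoxb5, Hoxb6 and Hoxd8. Hoxb5 reached the minimum for testing in gonadal libraries only, so that its direction in these comparisons was tied to that filter. Hoxa5, which in mice acts in the lung, the cervical and thoracic spine and the mesenchyme, had 160.4, 178 and 202 in F_APC, against 29.4, 22.4 and 39.6 in F_DPP4_neg (2.55 ± 0.18 (SE), adjusted p = 5.34e-12). In males it had 341, 449 and 367 in M_APC, against 63.9, 48.0 and 41.9 in M_DPP4_neg (2.898 ± 0.18 (SE), adjusted p = 2.71e-13). Every gonadal library thus stood above every inguinal one. FIP repeated this, with 103, 109 and 97.5 in F_FIP, against 31.01, 33.2 and 34.7 in F_DPP4_pos (1.62 ± 0.18 (SE), adjusted p = 3.77e-08), and 309.9, 317 and 367 in M_FIP, against 42.95, 32.3 and 33.04 in M_DPP4_pos (3.17 ± 0.18 (SE), adjusted p = 4.82e-14).

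Hoxa7, a thoracic gene, had 51.5, 52.3 and 101 in F_APC, against 22.2, 16.3 and 30.6 in F_DPP4_neg (1.498 ± 0.22 (SE), adjusted p = 2.13e-06), and 163, 165 and 169 in M_APC, against 22.3, 33.7 and 30.8 in M_DPP4_neg (2.49 ± 0.22 (SE), adjusted p = 2.90e-10). Hoxa3, which in mice is needed for the thymus and parathyroid, had 84.2, 44.0 and 81.6 in F_APC, against 26.2, 20.9 and 37.2 in F_DPP4_neg (1.27 ± 0.25 (SE), adjusted p = 0.000128), and 133, 133 and 157 in M_APC, against 27.4, 44.9 and 43.2 in M_DPP4_neg (1.88 ± 0.25 (SE), adjusted p = 4.42e-07). Groups did not overlap for either gene, although 1 F_APC library of Hoxa3 (44.0) came near the highest F_DPP4_neg one (37.2). Hoxb4, a neck and blood progenitor gene, had 104, 99.9 and 127 in F_APC, against 47.7, 52.6 and 57.8 in F_DPP4_neg (1.05 ± 0.16 (SE), adjusted p = 5.63e-06), and 291, 319 and 294 in M_APC, against 163, 112 and 104 in M_DPP4_neg (1.27 ± 0.16 (SE), adjusted p = 2.14e-07). Other cell types moved with the depot too. In APC minus DPP4_neg, 5 of 6 mesothelial markers, all 5 endothelial markers and all 4 adipocyte markers were called higher in each sex. The sixth mesothelial marker, Krt19, which epithelial cells also express, was called lower in females, at 105 to 126 in F_APC and 2561 to 6339 in F_DPP4_neg, and made the sum of the 6 run the other way there, at 834 to 1044 in F_APC and 2574 to 6347 in F_DPP4_neg. In males the sum was 264 to 382 in M_APC and 34.5 to 77.1 in M_DPP4_neg. Their part in the results was not tested.

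**Figure D5:**
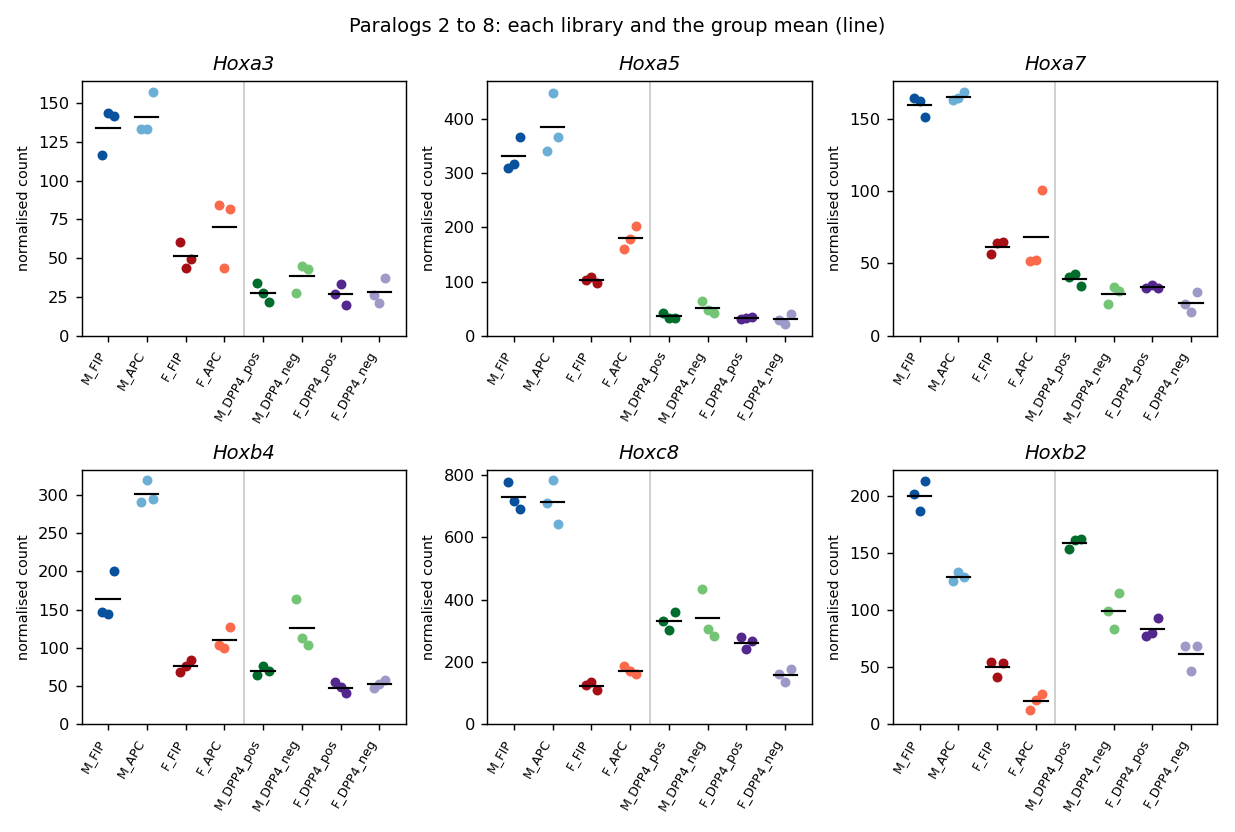
Normalised counts of 6 members of paralogs 2 to 8 in each of 24 libraries (points) with group means (lines). Male gonadal libraries are the highest for Hoxa3, Hoxa5, Hoxa7 and Hoxc8, Hoxb4 is highest in M_APC, and Hoxb2 is highest in M_FIP and lowest in F_APC.

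Other members had opposite depot differences in the 2 sexes. Hoxa10 was higher in female gonadal cells (1.26 ± 0.35 (SE), adjusted p = 0.00325, for APC minus DPP4_neg) and lower in male ones (-3.71 ± 0.35 (SE), adjusted p = 1.14e-09). Hoxc11 was higher in F_APC than in F_DPP4_neg (1.76 ± 0.37 (SE), adjusted p = 0.00022) and was nearly absent from M_APC, where the ratio of M_DPP4_neg over M_APC was 54.04 (exact binomial 95% interval 14.6 to 452). Hoxc8 was lower in F_FIP than in F_DPP4_pos (-1.07 ± 0.13 (SE), adjusted p = 2.17e-07) and higher in M_FIP than in M_DPP4_pos (1.13 ± 0.13 (SE), adjusted p = 3.22e-08), and Hoxc5 and Hoxa11 were also called in opposite directions between FIP and DPP4_pos. Hoxc9 was lower in FIP than in DPP4_pos of both sexes (-0.70 ± 0.16 (SE), adjusted p = 0.00088, in females and -0.48 ± 0.16 (SE), adjusted p = 0.0115, in males). Hoxc10 was lower in M_APC than in M_DPP4_neg (-5.81 ± 0.25 (SE), adjusted p = 2.19e-16), but 308 ± 15.3 in F_APC and 212 ± 33.2 in F_DPP4_neg, with adjusted p = 0.0573 (limma). Hoxb2 was the 1 member lower in F_APC than in F_DPP4_neg (-1.59 ± 0.19 (SE), adjusted p = 8.79e-08).

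Tested as a difference of differences, the depot effect differed between males and females for 4 members upwards and 14 downwards in APC minus DPP4_neg (background 22.7% and 20.4%). For FIP minus DPP4_pos the counts were 7 and 9 (background 15.9% and 19.2%). All 10 tested paralog 9 to 13 genes were among the 14 lower ones in the first, and 9 of them, without Hoxc9, were the lower ones in the second. The direction of Hoxa11, Hoxa13, Hoxd10 and Hoxd11, which passed the minimum only in female gonadal libraries, was tied to that filter. So was that of Hoxd3, lower in the first and over the minimum only in M_DPP4_neg. Hoxa13 and Hoxd11 passed it in F_FIP alone, which enters only the second comparison. Hoxc10 had differences of -6.36 ± 0.35 (SE), adjusted p = 4.43e-13, and -5.396 ± 0.35 (SE), adjusted p = 2.18e-11. Hoxa10 had -4.97 ± 0.50 (SE), adjusted p = 1.46e-08, and -5.11 ± 0.50 (SE), adjusted p = 2.001e-08. Hoxa9 had -3.23 ± 0.73 (SE), adjusted p = 0.00088, in the first comparison. Hoxa11, Hoxc11 and Hoxd11 were called too, with 0 to 2 reads in at least 1 of the groups, so that their fitted values depend on the added 1. The values of Hoxa9 and Hoxa10, with few reads in male gonadal cells, depend on it as well. The members upwards were Hoxa7, Hoxb2, Hoxb3 and Hoxc8 in the first and Hoxa3, Hoxa5, Hoxa7, Hoxb2, Hoxb5, Hoxc5 and Hoxc8 in the second. These tests share their libraries with the sex and depot comparisons above.

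FIP and APC of the gonadal depot differed less. In females 2 members were higher and 5 lower in FIP (background 21.4% and 18.2%), and in males 4 were higher and 2 lower (background 18.9% and 18.1%). Each is a share of the 31 members under that of all genes, though 16.1% lower in females and 12.9% higher in males are near it. None of these called members was among the 10 tested paralog 9 to 13 genes. With quantile normalisation, and with edgeR, the female split was 4 higher and 5 lower, Hoxd10 and Hoxd11 being called higher in F_FIP as well. Hoxd11 reached the minimum for testing in F_FIP libraries only, so that its direction was fixed by that filter. Hoxb2 was higher in FIP of both sexes, at 54.8, 41.8 and 53.7 in F_FIP, against 12.9, 21.4 and 26.3 in F_APC (1.32 ± 0.19 (SE), adjusted p = 3.65e-06), and 201, 186 and 213 in M_FIP, against 126, 133 and 129 in M_APC (0.63 ± 0.19 (SE), adjusted p = 0.0106). Hoxd8 was also higher in both (0.90 ± 0.16 (SE), adjusted p = 6.91e-05, in females and 0.65 ± 0.16 (SE), adjusted p = 0.0023, in males). Hoxb4 was lower in both (-0.52 ± 0.16 (SE), adjusted p = 0.0131, in females and -0.89 ± 0.16 (SE), adjusted p = 0.000102, in males). Hoxb2, Hoxd8 and Hoxb4 were chosen here after their values were seen.

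The 1 member whose FIP to APC difference was called different between the sexes was Hoxb6 (background 5.5% higher and 5.35% lower). It had 47.2, 58.9 and 53.6 in M_FIP, against 30.05, 34.8 and 39.6 in M_APC. In females it had 34.9, 45.2 and 31.8 in F_FIP, against 49.5, 46.4 and 58.1 in F_APC. The difference between the sexes was 1.06 ± 0.33 (SE), adjusted p = 0.0388, and the call was lost without 8 of the 12 libraries taken singly (limma, adjusted p up to 0.0981).

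In the inguinal depot 10 members were higher and 1 lower in F_DPP4_pos than in F_DPP4_neg (background 22.7% and 27.2%), and 7 higher and 6 lower in males (background 25.3% and 25.4%). By quantile normalisation females had 18 higher and 0 lower, and males had 9 higher and 2 lower. Members higher in DPP4_pos of both sexes were Hoxb2, Hoxc4, Hoxc6 and Hoxd8, by 0.34 (Hoxc6 in males) to 0.9998 (Hoxd8 in females). Hoxb2 and Hoxd8 were thus higher in FIP and in DPP4_pos, in both sexes. Epithelial markers were 314 to 567 in F_DPP4_pos and 7609 to 18198 in F_DPP4_neg, and their part in the female calls was not tested.

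The DPP4 difference itself differed between males and females for 2 members upwards and 4 downwards (background 16.5% and 12.7%), with splits of 2 and 11 by quantile normalisation, 2 and 7 by TMM scaling, and 1 and 4 by edgeR and by DESeq2. The DPP4_neg groups were unlike in the 2 sexes. Dpp4, Pi16, Cd55 and Anxa3 summed to 7325 to 23325 in F_DPP4_neg and 2298 to 2635 in M_DPP4_neg. Epithelial markers summed to 7609 to 18198 in F_DPP4_neg and 8.63 to 21.4 in M_DPP4_neg. The part of such cells in these differences was not tested. Hoxb3, a neck and hindbrain gene, had 81.4, 96.9 and 92.5 in M_DPP4_pos, against 50.7, 67.4 and 67.8 in M_DPP4_neg, and 51.02, 49.7 and 52.9 in F_DPP4_pos, against 71.5, 76.6 and 86.7 in F_DPP4_neg. Its direction was opposite in the sexes (1.14 ± 0.23 (SE), adjusted p = 0.000405), and 52.9% of its exon length is shared with the opposite-strand gene Hoxb3os. Hoxc10 had 223, 212 and 229 in M_DPP4_pos, against 428, 405 and 430.3 in M_DPP4_neg (-0.93 ± 0.25 (SE), adjusted p = 0.00274), and 245, 208 and 283 in F_DPP4_pos, against 214, 177 and 244 in F_DPP4_neg (adjusted p = 0.497, limma). The difference between the sexes was -1.14 ± 0.35 (SE), adjusted p = 0.015. Hoxa11 was called as well, on 6 reads in M_DPP4_pos, 1 in M_DPP4_neg, none in F_DPP4_pos and 1 in F_DPP4_neg, and this call was lost in 13 of 22 alternatives (adjusted p up to 0.27).

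HOX proteins bind DNA with partner homeodomain proteins of the PBX, MEIS and PKNOX families, and 9 of 9 genes of such partners were tested. Males minus females, 3 of the 9 were higher and 5 lower in APC (background 22.4% and 22.2%), and 1 higher and 4 lower in FIP (background 18.3% and 19.1%). Gonadal cells were set apart from inguinal cells by Meis1, which had 881 ± 73.8 in F_APC and 212 ± 23.5 in F_DPP4_neg (2.05 ± 0.11 (SE), adjusted p = 3.37e-14), and 726 ± 7.42 in M_APC and 117 ± 15.2 in M_DPP4_neg (2.64 ± 0.11 (SE), adjusted p = 1.43e-16). Meis2 was lower in males than in females of the gonadal depot (-0.81 ± 0.08 (SE), adjusted p = 1.31e-08, in APC and -0.53 ± 0.08 (SE), adjusted p = 1.07e-05, in FIP). In APC minus DPP4_neg, 6 of the 9 partners were higher and 1 was lower among females (background 27% and 32.4%), while among males 5 were higher and 2 were lower (background 33.3% and 33.1%).

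Polycomb and trithorax proteins keep HOX genes silent or active in the adult. Of 21 Polycomb genes tested, 8 were higher and 3 lower in M_APC than in F_APC (background 22.4% and 22.2%), and 6 higher and 2 lower in M_FIP than in F_FIP (background 18.3% and 19.1%). Of 10 trithorax and H3K27 demethylase genes, none was higher and 1 lower in M_APC, and none higher and 4 lower in M_FIP. The background shares for these are the same. Among these 10, Kdm6a had 411 ± 44.0 in M_APC and 719 ± 23.5 in F_APC, and 398 ± 10.3 in M_FIP and 699 ± 17.5 in F_FIP. Its mean was lower in inguinal males too, at 372 ± 22.3 in M_DPP4_pos and 515 ± 41.6 in F_DPP4_pos. In DPP4_neg cells it had 372 ± 37.3 in males and 598 ± 34.6 in females. Whether this bears on the HOX genes was not tested. The CDX genes, which turn on HOX genes in the embryo, were below the minimum, with group means of at most 1.09.

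Genes in and beside the clusters were read from the same table. The neighbouring homeobox genes Evx1 and Evx2, at the high-paralog ends of Hoxa and Hoxd, had group means of at most 0.385 and 0.340. Of the 12 neighbours listed, 7 were tested, and 1 was higher and 1 lower in males in each of APC (background 22.4% and 22.2%) and FIP (background 18.3% and 19.1%). With 7 genes, these counts cannot be set apart from the shares of all genes. The non-coding transcript Hotair, which lies between Hoxc11 and Hoxc12, had no read in the 6 male gonadal libraries, against 3.32, 5.12 and 2.99 in F_FIP and 0.990, 7.13 and 8.296 in F_APC. Hoxa11os and Hoxaas3 were the 2 tested of 9 non-coding rows, and the rows of the microRNAs Mir10a, Mir10b, Mir196a-1, Mir196a-2 and Mir196b had group means of at most 1.501.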

How the data were processed

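Bulk RNA-seq of 24 libraries in 8 groups of 3 was read from a table of normalised counts, a signal that the authors deposited. The build GRCm38 (mm10) and the tools featureCounts 1.4.6, HISAT2 2.0.1, Trim Galore 0.4.1 and DESeq2 1.6.3 are named, with no role or order, per the submitters' processing notes. The annotation, filters and strand setting used for counting are not given in the sources used here.

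Each column consists of whole multiples of 1 step, and 100% of values came out as whole reads within 0.01 read. These recovered reads sum to 9152470 to 18221692 a library, and intervals and floors over them cover counting error only. The 958 rows without a gene symbol, at most 0.0765% of the reads of a library, were left out.

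A linear model with 1 mean a group was fitted with limma 3.58.1 in R 4.3.3 to log2 of the normalised count plus a pseudocount of 1, with a mean-dependent prior, for the 14387 genes that reached 10 in 3 or more libraries. P-values were adjusted over these genes by Benjamini-Hochberg and called under 0.05. Levels per kb use the union of exons in GENCODE vM21. The procedure was tested on simulated data. Counts and sums cover all members, and values of a few genes are not reported here. The HOX genes, the lists of other genes and the tests were chosen with earlier results of these data known. Named with full values were members called the same way in males and females without overlap, with a log2 difference of at least 1 and a mean of at least 50, at most 8 a comparison, and for the sex comparisons and the differences at most 5 by size; others named with values were chosen after these were seen. The edgeR test on recovered reads called 5557 of the 14387 genes for M minus F in FIP, against 5378 with limma. Alternatives were pseudocounts of 0.1 and 10, no filter and a filter of 50, quantile normalisation, TMM scaling, edgeR 4.0.16 and DESeq2 1.42.0 on recovered reads, a fit on the groups compared, a replicate block, and each library left out.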

Additional observations from a re-analysis of the deposited data

Results flagged for a closer look

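Results are listed here where an effect was called different between males and females by the limma test of the difference itself. Each value is the male effect minus the female effect on the scale of log2 of the normalised count plus 1. Male and female effects rest on 3 libraries a group, and the comparisons share libraries, so that they are not independent of each other.

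For gonadal APC minus inguinal DPP4_neg, the male effect was the lower one for 14 members. The differences were -6.90 for Hoxa11, -6.54 for Hoxc11, -6.36 for Hoxc10, -4.97 for Hoxa10, -3.23 for Hoxa9, -3.20 for Hoxd9, -3.08 for Hoxd10, -2.97 for Hoxd11, -2.81 for Hoxa13, -2.02 for Hoxb8, -1.43 for Hoxd3, -1.01 for Hoxb6, -0.70 for Hoxc9 and -0.66 for Hoxc6. The male effect was the higher one for 4 members, with 1.98 for Hoxb2, 1.51 for Hoxb3, 0.996 for Hoxa7 and 0.95 for Hoxc8. Adjusted p over these 18 members ran from 4.43e-13 to 0.0419.

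For gonadal FIP minus inguinal DPP4_pos, the male effect was the lower one for 9 members, all of paralogs 9 to 13. The differences were -8.27 for Hoxa11, -7.02 for Hoxc11, -5.40 for Hoxc10, -5.11 for Hoxa10, -4.16 for Hoxd11, -3.59 for Hoxa9, -3.48 for Hoxa13, -3.20 for Hoxd10 and -1.97 for Hoxd9. It was the higher one for 7 members of paralogs 2 to 8, with 2.20 for Hoxc8, 1.55 for Hoxa5, 1.42 for Hoxb5, 1.30 for Hoxa3, 1.19 for Hoxc5, 1.15 for Hoxa7 and 1.06 for Hoxb2. Adjusted p over these 16 members ran from 2.18e-11 to 0.0333.

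For DPP4_pos minus DPP4_neg within the inguinal depot, the difference was 1.59 for Hoxa11 and 1.14 for Hoxb3, against -1.14 for Hoxc10, -0.76 for Hoxc9, -0.74 for Hoxc8 and -0.67 for Hoxb4, with adjusted p from 0.000405 to 0.0359. For FIP minus APC within the gonadal depot it was 1.06 for Hoxb6.

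The fitted differences of Hoxa11, Hoxa13, Hoxc11, Hoxd10 and Hoxd11 rest on groups with 0 to 4 reads and depend on the added 1, so that their size is no measure of a fold. Those of Hoxa9, Hoxa10 and Hoxb8, with few reads in at least 1 group, depend on the added 1 as well. The epithelial markers were high in F_DPP4_neg, which enters the APC minus DPP4_neg and DPP4_pos minus DPP4_neg differences but not FIP minus DPP4_pos. The part of epithelial RNA was not tested. Hoxa11, Hoxa13, Hoxd10 and Hoxd11 passed the minimum for testing only in female gonadal libraries and Hoxd3 only in M_DPP4_neg, so that their direction was tied to that filter. Hoxa13 and Hoxd11 passed it in F_FIP alone, which does not enter the APC minus DPP4_neg difference.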

How the results depend on the processing

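Of 733 alternative values of the 41 named gene differences, 710 kept direction and side of the threshold, 23 fell past it and none reversed. Over all 237 called pairs of member and comparison, none of 3973 alternative values had the opposite direction. Counts of called members moved by over 1.5 times as follows. For FIP minus APC in females (7), a pseudocount of 10 gave 12. For FIP minus APC in males (6), no filter gave 3, and leaving out single libraries gave 3 to 6, with 3 without M_FIP replicate 1. For DPP4_pos minus DPP4_neg, quantile normalisation gave 18 in females (11), and a fit of the groups compared gave 8 in males (13), where leaving out single libraries gave 8 to 13, with 8 without M_DPP4_pos replicate 2. A filter of 50, which tests fewer members, gave 14 for APC minus DPP4_neg in each sex (22) and 16 for M minus F in FIP (26). For the difference between sexes of FIP minus APC (1), a pseudocount of 10 gave 2, no filter 0, edgeR 2, a fit of the groups compared 3, and single omissions 0 to 1, with 0 without F_APC replicate 1, F_FIP replicates 1 and 3, M_APC replicate 1, and M_FIP replicates 2 and 3. For that of DPP4_pos minus DPP4_neg (6), quantile normalisation gave 13. The cause of these changes was not tested, except that a filter of 50 leaves fewer members.

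Deviations from group means correlated at -0.18 to 0.20 between libraries of the same number and -0.15 to 0.20 between others. Of the 24 libraries, 6 correlated best with their own number. These ranges pool pairs over all groups, including pairs of a male with a female library, which cannot share an animal. Pairs within the same sex and depot were not looked at apart, so whether the replicate numbers pair libraries there was not tested. With a replicate block, counts were 12 for DPP4_pos minus DPP4_neg in males (13 without) and 8 for M minus F in DPP4_pos (9 without), and equal to those without the block elsewhere. Members with few reads, such as Hoxb9, Hoxd13 and Hoxd1, were below what this depth can test.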
